A study of Homo sapiens with 10 samples.

Results

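The miR-99/100 and miR-125 families were followed through small RNA sequencing of ES-2 cells, an established human cell line derived from ovarian cancer. The set is made of 8 mature miRNAs, hsa-miR-99a-5p, hsa-miR-99b-5p, hsa-miR-99b-3p, hsa-miR-100-5p, hsa-miR-125a-5p, hsa-miR-125b-5p, hsa-miR-125b-1-3p and hsa-miR-125b-2-3p, out of 2576 in the deposited table, of which 1196 had a read. They were chosen by name, as neighbours of let-7 genes, and rows of 1 mature miRNA were summed over its genomic copies. The 10 libraries fell into 4 groups: 2 from cells with control siRNA (siC), 2 with a pool of siRNAs against IGF2BP1 (siIGF2BP1), 3 with a pool against IGF2BP2 (siIGF2BP2) and 3 with a pool against IGF2BP3 (siIGF2BP3). The 3 targets encode paralogous RNA-binding proteins, and the comparisons ask whether levels of these miRNAs differed after each knockdown. The cells were otherwise given as the parental line, but source names differ between groups, as described below. Whether all groups were grown alike is therefore not settled. Depletion of the targets was not measured in these libraries of small RNA.

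A miRNA is cut from a hairpin precursor, whose arms give a 5p and a 3p strand. One strand is usually kept in Argonaute and pairs with target mRNAs mainly through its seed, bases 2 to 8. The miR-100/let-7/miR-125 arrangement is an ancient cluster that was duplicated in vertebrates, and each copy lies in a host transcript from which its miRNAs can be produced together. miR-100 and its relatives are best known for repressing mTOR pathway mRNAs. miR-125 is the relative of worm lin-4, and its known targets include LIN28 and pro-apoptotic mRNAs.

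Seeds are shown because they define the families and because the paralogs differ by few bases. The mature sequences below are those of RefSeq on GRCh38.p14, where all 8 were found, and capitals mark the seed. Sequences of 2 opposite arms, miR-100-3p and miR-125a-3p, are added because arm ratios are reported for them.
miR-100-5p: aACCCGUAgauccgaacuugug
miR-99a-5p: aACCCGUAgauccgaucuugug
miR-99b-5p: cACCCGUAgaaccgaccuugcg
miR-125b-5p: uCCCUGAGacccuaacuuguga
miR-125a-5p: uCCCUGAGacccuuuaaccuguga
miR-99b-3p: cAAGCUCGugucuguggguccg
miR-125b-1-3p: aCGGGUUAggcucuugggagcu
miR-125b-2-3p: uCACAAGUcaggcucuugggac
miR-100-3p: cAAGCUUGuaucuauagguaug
miR-125a-3p: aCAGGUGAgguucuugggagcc

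The seed ACCCGUA was held by 3 of 2370 mature human names in that table, which are miR-99a-5p, miR-99b-5p and miR-100-5p. The seed CCCUGAG was held by miR-125a-5p, miR-125b-5p and the unrelated miR-4319. Counted from the 5′ end, miR-99a-5p differed from miR-100-5p by 1 substitution, A16U, and miR-99b-5p differed from miR-100-5p by A1C, U11A, A16C and U21C. How the authors placed reads with mismatches is not given in the sources used here, so the split of reads between miR-99a-5p and the far more abundant miR-100-5p is uncertain. The 3p arms of the 2 miR-125b hairpins have different seeds (CGGGUUA and CACAAGU), so each of them reports on 1 locus, whereas miR-125b-5p is the same from both.

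The genes lie in 3 clusters (GRCh38.p14, RefSeq). On the minus strand of chromosome 11, MIR100 (chr11:122152229-122152308), MIRLET7A2 (chr11:122146522-122146593) and MIR125B1 (chr11:122099757-122099844) lie within MIR100HG, with 52.4 kb between MIR100 and MIR125B1. On the plus strand of chromosome 21, MIR99A (chr21:16539089-16539169), MIRLET7C (chr21:16539828-16539911) and the arms of MIR125B2 (chr21:16590253-16590311) lie within MIR99AHG, with 51.1 kb between MIR99A and MIR125B2. On the plus strand of chromosome 19, MIR99B (chr19:51692612-51692681), MIRLET7E (chr19:51692786-51692864) and MIR125A (chr19:51693254-51693339) lie within SPACA6, and 572 bases separate MIR99B from MIR125A. No exon of these host genes covers any of the hairpins in GENCODE 29, so all are intronic. The deposited table was made on hg19 and holds no coordinates.

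Libraries held between 462724 and 1269743 reads, and all 8 members passed the filter on low values. Values are the authors' normalised signal, in which 1 read was worth 0.803 to 2.0. No pair of libraries in a group was alike within counting error (chi-square over its degrees of freedom was 8.17 to 46.8). Whether they stem from independent cultures is not labelled, so the p-values speak only of the spread among these libraries, which may be technical. The siC and siIGF2BP1 libraries carry another source name than the siIGF2BP2 and siIGF2BP3 libraries. A list of 28 miRNAs of the imprinted 14q32 cluster had 26 to 28 members with a read per siC or siIGF2BP1 library (0.161 to 0.428% of reads), against 4 or 5 members per siIGF2BP2 or siIGF2BP3 library (0.000859 to 0.00182%). In siIGF2BP2 vs siC and siIGF2BP3 vs siC, source and knockdown therefore cannot be told apart. Of 7 blood markers 5 or 6 had a read per siC or siIGF2BP1 library (0.0439 to 0.118% of reads). In the other groups 2 to 4 had a read per library (0.0440 to 0.163% of reads). Markers of smooth muscle and fibroblasts took at most 0.469% of the reads of a library, those of neural cells at most 0.121% and those of liver and muscle at most 0.000273%.

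miR-100-5p dominated the families at 62154 ± 6968 (SD, n = 2) in siC, where the 8 miRNAs together took 7.83% ± 0.499 (SD, n = 2) of all reads. Ranked by mean signal over the 10 libraries, miR-100-5p was number 7 of all miRNAs. miR-125b-5p was number 33, miR-99b-5p 39, miR-125a-5p 41 and miR-125b-1-3p 47. The last 3 were miR-125b-2-3p at 119, miR-99a-5p at 129 and miR-99b-3p at 145. Those ranks pool the 4 groups, and the order within a group differed. In siC no neighbours in the order overlapped. In each of the 3 knockdowns miR-99b-5p overlapped with miR-125a-5p (3001 ± 712 and 2549 ± 174 in siIGF2BP2, SD, n = 3), and miR-99a-5p with miR-99b-3p. miR-99b-5p had the higher mean than miR-125b-5p in siIGF2BP1 (3632 and 2850), and their values overlapped there and in siIGF2BP2. In siIGF2BP3 miR-125b-1-3p (2223 to 2701) lay above miR-125a-5p (1768 to 2043) and overlapped with miR-99b-5p. miR-125b-2-3p and miR-99a-5p overlapped in siIGF2BP2. Levels of different miRNAs also carry the bias of adapter ligation, which was not tested.

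The 3p arm of MIR125B1 was the member that rose: miR-125b-1-3p was 1.51-fold higher in siIGF2BP3 than in siC. In siIGF2BP2 against siIGF2BP3, miR-125a-5p was 1.33-fold higher. No member passed the test in siIGF2BP1 vs siC or siIGF2BP2 vs siC. The clearest limma values there were a lower miR-125b-5p and a higher miR-125a-5p after IGF2BP1 knockdown. The difference of miR-125a-5p was smaller with edgeR and DESeq2. The tests below are limma's on log2(signal + 1), with Benjamini-Hochberg adjustment over 889 miRNAs and a threshold of 0.05. The 3 comparisons with siC share its 2 libraries. In RNA from whole cultures, a difference in all cells and a difference in a part of them cannot be told apart.

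**Figure D1:**
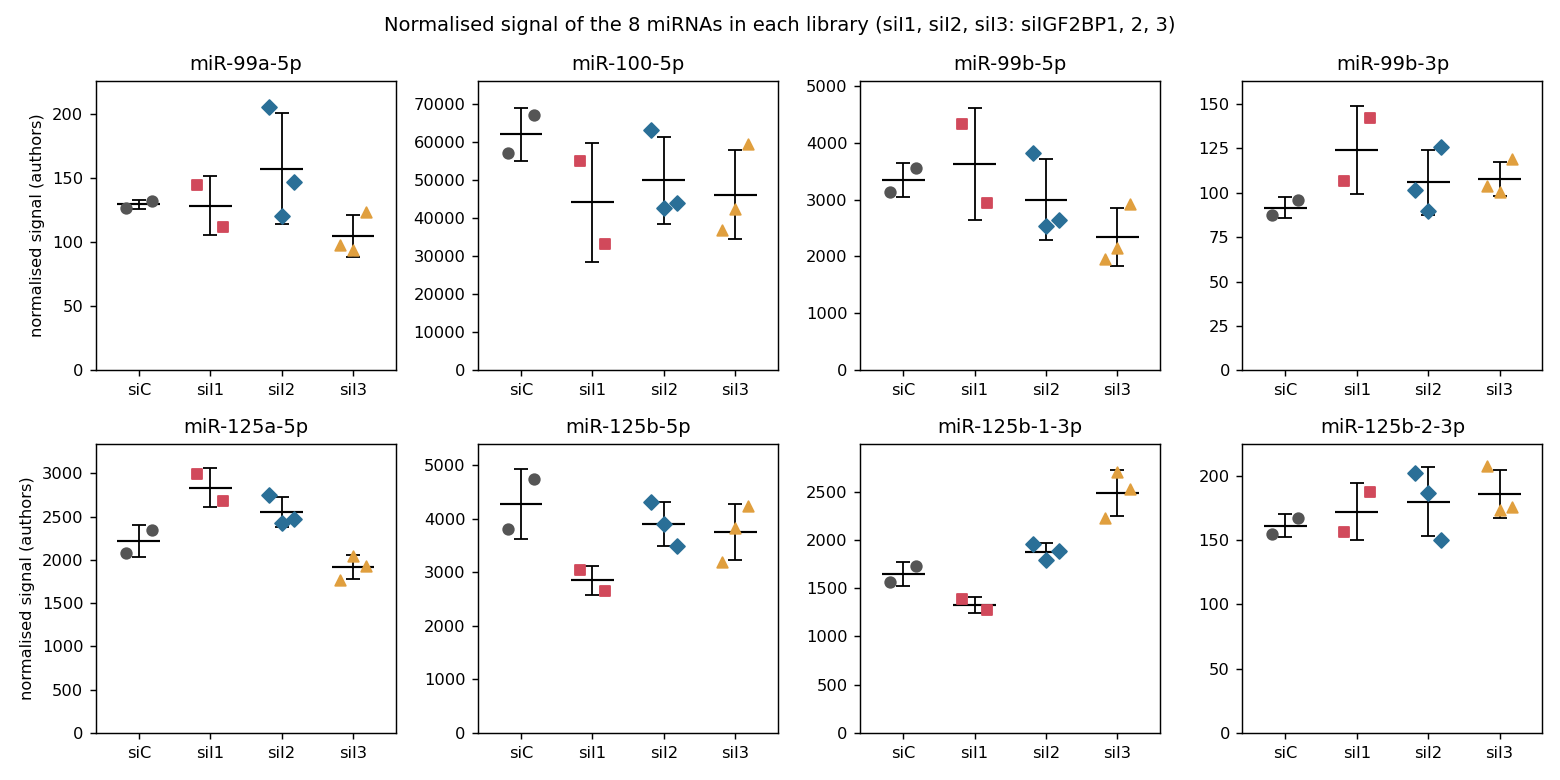
Normalised signal (linear axis from 0) of each of the 8 miRNAs in each of the 10 libraries, by group (siI1, siI2 and siI3 stand for siIGF2BP1, siIGF2BP2 and siIGF2BP3); points are libraries, horizontal lines group means and bars 1 SD. The 3 siIGF2BP3 libraries of miR-125b-1-3p sit between 2223 and 2701, above all other libraries, and miR-100-5p, miR-99b-5p and miR-99a-5p each have 1 high library in siIGF2BP2 and in siIGF2BP3.

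miR-125b-1-3p, the passenger arm of the chromosome 11 copy, had a signal of 1559 and 1733 in siC, 1388 and 1270 in siIGF2BP1, 1960, 1787 and 1882 in siIGF2BP2 and 2223, 2701 and 2526 in siIGF2BP3. All siIGF2BP3 libraries were above all others, the siIGF2BP2 libraries lay between these and siC, and the siIGF2BP1 libraries were the lowest. Against siC it rose by 0.59 ± 0.12 on the log2 scale in siIGF2BP3 (SE, limma adjusted p = 0.00380, 95% interval 0.34 to 0.84). That call was made in 12 of 12 other settings and with each of the 5 libraries left out. The lowest value, 0.48, came from median-of-ratios scaling, TMM scaling and edgeR, and upper-quartile scaling gave 1.19. The authors' deposited table gives it a log2 fold change of 0.59 at a false discovery rate of 0.000359. Between siIGF2BP2 and siIGF2BP3 its log2 difference was -0.40 ± 0.10 (SE, limma adjusted p = 0.0599), which passed the threshold with edgeR (adjusted p = 0.0413) and DESeq2 (adjusted p = 0.00460). In siIGF2BP1 vs siC it was -0.31 ± 0.13 (SE, limma adjusted p = 0.273), and -0.56 with an adjusted p of 0.0119 in edgeR.

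The 3p arm of the other copy, miR-125b-2-3p, did not show the same values. Its signal was 155 and 168 in siC, 157 and 188 in siIGF2BP1, 202, 187 and 150 in siIGF2BP2 and 208, 174 and 176 in siIGF2BP3, from 87 to 213 reads a library. The siIGF2BP3 libraries were above siC and the other groups overlapped with it. The log2 difference of siIGF2BP3 from siC was 0.20 ± 0.18 (SE, limma adjusted p = 0.613, 95% interval -0.19 to 0.59). The ratio of miR-125b-1-3p to miR-125b-2-3p was 10.1 and 10.3 in siC, 8.86 and 6.77 in siIGF2BP1, 9.69, 9.55 and 12.5 in siIGF2BP2 and 10.7, 15.5 and 14.4 in siIGF2BP3. The siIGF2BP3 ratios were above both siC ratios, with a difference of 0.39 on the log2 scale (exact permutation test, two-sided p = 0.2, the smallest that 3 against 2 libraries allow).

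miR-125b-5p, the guide strand that both copies encode, had a signal of 3817 and 4742 in siC, 3038 and 2661 in siIGF2BP1, 4322, 3901 and 3498 in siIGF2BP2 and 3189, 3837 and 4231 in siIGF2BP3. Both siIGF2BP1 libraries were below all other libraries, and the other 3 groups overlapped. The log2 difference of siIGF2BP1 from siC was -0.58 ± 0.16 (SE, limma adjusted p = 0.0743, 95% interval -0.92 to -0.24). It passed the threshold in 5 of 12 other settings, among them edgeR on recovered reads (-0.84, adjusted p = 0.00698), and with none of the 4 libraries left out (adjusted p from 0.155 to 0.391). Its 2 rows, 1 for each genomic copy, each held 46.8 to 53.2% of its reads in every library, and these rows do not separate the loci because the mature sequence is the same. The log2 differences from siC were -0.13 ± 0.14 in siIGF2BP2 (SE, limma adjusted p = 0.761) and -0.19 ± 0.14 in siIGF2BP3 (SE, limma adjusted p = 0.538).

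miR-125a-5p, the paralog from chromosome 19, had a signal of 2083 and 2344 in siC, 2992 and 2676 in siIGF2BP1, 2748, 2425 and 2474 in siIGF2BP2 and 1768, 2043 and 1929 in siIGF2BP3. Each group was clear of siC, with siIGF2BP1 and siIGF2BP2 above it and siIGF2BP3 below. In siIGF2BP2 vs siIGF2BP3 it was higher by 0.41 ± 0.10 on the log2 scale (SE, limma adjusted p = 0.0450, 95% interval 0.19 to 0.63). That call was also made in 9 of 13 other settings, among them edgeR (0.46, adjusted p = 0.0122) and DESeq2 (0.45, adjusted p = 0.000209). It was lost with TMM scaling (adjusted p = 0.0506), upper-quartile scaling (0.338), no filter on low values (0.0647) and the replicate number as a block (0.236). It was also lost with each of the 6 libraries left out (adjusted p from 0.0552 to 0.161), with the log2 difference between 0.36 and 0.46. Against siC the log2 differences were 0.36 ± 0.12 in siIGF2BP1 (SE, limma adjusted p = 0.171), 0.20 ± 0.11 in siIGF2BP2 (adjusted p = 0.399) and -0.21 ± 0.11 in siIGF2BP3 (adjusted p = 0.344). In siIGF2BP1 vs siC, miR-125a-5p differed by 0.10 with edgeR (adjusted p = 0.598) and by 0.12 with DESeq2 (adjusted p = 0.613). Its passenger arm miR-125a-3p had only 18 to 89 reads a library. The siC values, 29.7 and 37.3, were below those of all 8 knockdown libraries (44.0 to 71.5), and the log2 difference of siIGF2BP1 from siC was 0.92 ± 0.25 (SE, limma adjusted p = 0.0743).

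miR-100-5p had a signal of 57226 and 67081 in siC, 55185 and 33145 in siIGF2BP1, 63252, 42805 and 43889 in siIGF2BP2 and 36860, 42424 and 59489 in siIGF2BP3. Both siIGF2BP1 libraries were below siC and lay far apart, and the other knockdowns overlapped with siC. In siIGF2BP2 and in siIGF2BP3, 1 library lay well above the rest of its group. The log2 differences from siC were -0.53 ± 0.26 in siIGF2BP1 (SE, limma adjusted p = 0.388), -0.33 ± 0.24 in siIGF2BP2 (adjusted p = 0.569) and -0.45 ± 0.24 in siIGF2BP3 (adjusted p = 0.323). The 95% interval for siIGF2BP1 ran from -1.10 to 0.03, so these libraries did not resolve whether it was lower there. Between siIGF2BP2 and siIGF2BP3 the log2 difference was 0.12 ± 0.21 (SE, limma adjusted p = 0.918).

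miR-99b-5p had a signal of 3139 and 3551 in siC, 4326 and 2937 in siIGF2BP1, 3821, 2539 and 2644 in siIGF2BP2 and 1964, 2155 and 2921 in siIGF2BP3. The siIGF2BP3 libraries were all below siC, and the other groups overlapped with it. The log2 difference of siIGF2BP3 from siC was -0.53 ± 0.21 (SE, limma adjusted p = 0.166, 95% interval -0.99 to -0.06). miR-99a-5p, from 49 to 180 reads a library, had a signal of 127 and 132 in siC, 145 and 112 in siIGF2BP1, 205, 120 and 147 in siIGF2BP2 and 97.8, 93.5 and 124 in siIGF2BP3. Its siIGF2BP3 libraries were below siC, and its log2 difference between siIGF2BP2 and siIGF2BP3 was 0.56 ± 0.21 (SE, limma adjusted p = 0.218). miR-99b-3p, the passenger arm, ranged from 87.4 to 142 over all libraries and was higher in both siIGF2BP1 and all 3 siIGF2BP3 libraries than in siC. Its log2 differences from siC were 0.42 ± 0.22 in siIGF2BP1 (SE, limma adjusted p = 0.444) and 0.23 ± 0.20 in siIGF2BP3 (adjusted p = 0.612).

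**Figure D2:**
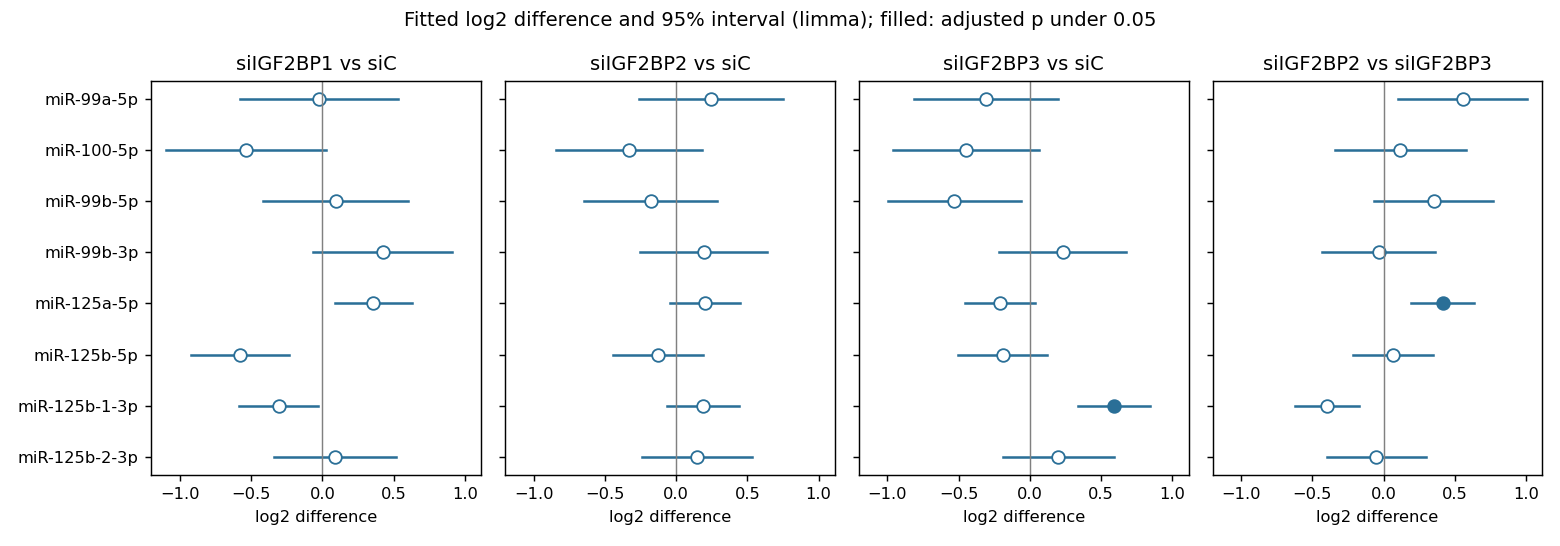
limma's log2 difference (horizontal axis) with its 95% interval for the 8 miRNAs in the 4 comparisons; filled points have an adjusted p under 0.05. The filled points are miR-125b-1-3p in siIGF2BP3 vs siC (0.59) and miR-125a-5p in siIGF2BP2 vs siIGF2BP3 (0.41).

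Counted over the 8 members, none was called in siIGF2BP1 vs siC, where 2.47% of all tested miRNAs were called. An unadjusted p under 0.05 was found for 3 members (37.5%), beside 13.7% of all tested miRNAs and 31.6% of the 313 with a mean signal of at least 10. edgeR and DESeq2 each called 2 members there, miR-125b-5p and miR-125b-1-3p, both lower, beside 12.5% and 11.4% of the miRNAs these tools tested. The groups did not overlap for 5 members, against 56.5% of the 313 miRNAs. In siIGF2BP2 vs siC none was called, with 9.0% of all miRNAs called, and 0 had an unadjusted p under 0.05, beside 17.9% of all and 26.8% of the 313. edgeR and DESeq2 also called 0 members there, beside 15.5% and 11.6% of all, and 2 members did not overlap against 42.5%. In siIGF2BP3 vs siC 1 member was called, and it was higher, against 10.6% of all called in either direction. An unadjusted p under 0.05 was found for 2 members (25%), beside 20.8% of all and 34.5% of the 313. Here 6 members did not overlap against 46.0%. edgeR called 1 member there beside 19.1% of all, and DESeq2 called 2, adding a lower miR-125a-5p (adjusted p = 0.0446), beside 14%. In siIGF2BP2 vs siIGF2BP3 1 member was called, and it was higher, against 3.15% of all called in either direction. An unadjusted p under 0.05 was found for 3 members (37.5%), beside 13.8% of all and 28.4% of the 313. Here 2 members did not overlap against 32.9%. edgeR and DESeq2 each called 2 members there, a higher miR-125a-5p and a lower miR-125b-1-3p, beside 11.9% and 14.4%. The median log2 differences of the members were 0.03, 0.17, -0.20 and 0.09 in these 4 comparisons, beside 0.10, -0.03, 0 and 0 over all miRNAs tested. Over the 313 with a mean signal of at least 10, as all members have, the medians were 0.16, 0.04, 0.08 and -0.04. The 5 members with lower values in siIGF2BP3 than in siC (miR-99a-5p, miR-99b-5p, miR-100-5p, miR-125a-5p and miR-125b-5p) had higher values with upper-quartile scaling, which moved the median of the 313 miRNAs from 0.08 to 0.67.

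The make-up of a seed family varied little within a group. Of the reads of both miR-125 guide strands, miR-125a-5p took 34.2% ± 1.58 (SD, n = 2) in siC, which compares with 49.9% ± 0.368 (n = 2) after IGF2BP1, 39.5% ± 1.65 (n = 3) after IGF2BP2 and 33.9% ± 2.30 (n = 3) after IGF2BP3 knockdown. The siIGF2BP1 libraries had the highest shares and the siIGF2BP2 libraries came next, while siIGF2BP3 overlapped with siC. The ratio of miR-125b-5p to miR-125a-5p was 1.83 and 2.02 in siC, 1.02 and 0.994 in siIGF2BP1, 1.57, 1.61 and 1.41 in siIGF2BP2 and 1.80, 1.88 and 2.19 in siIGF2BP3. The log2 ratio of siIGF2BP1 differed from siC by -0.94 (exact permutation test, two-sided p = 0.333, the smallest that 2 against 2 libraries allow). In siIGF2BP2 vs siIGF2BP3 it differed by -0.35 without overlap (exact permutation test, two-sided p = 0.1, the smallest possible with 3 against 3). Such ratios do not depend on how libraries are scaled.

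miR-100-5p made up 94.7% ± 0.138 (SD, n = 2) of the miR-99/100 guide strands in siC, which compares with 92.0% ± 0.658 (n = 2) after IGF2BP1, 94.1% ± 0.0760 (n = 3) after IGF2BP2 and 94.9% ± 0.216 (n = 3) after IGF2BP3 knockdown. The miR-99b-5p share was 5.10% ± 0.121, 7.68% ± 0.611, 5.64% ± 0.0506 and 4.85% ± 0.188 (SD) in the same order. The ratio of miR-100-5p to miR-99b-5p was 18.2 and 18.9 in siC, 12.8 and 11.3 in siIGF2BP1, 16.6, 16.9 and 16.6 in siIGF2BP2 and 18.8, 19.7 and 20.4 in siIGF2BP3. The siIGF2BP1 ratios were the lowest, the siIGF2BP2 ratios lay between them and siC, and the siIGF2BP3 ratios overlapped with siC. The log2 ratio of siIGF2BP1 differed from siC by -0.63 (exact permutation test, two-sided p = 0.333). In both families the chromosome 19 paralog thus had its highest share after IGF2BP1 knockdown. The miR-99a-5p share, from chromosome 21, was also above siC there (0.242 and 0.309% against 0.210 and 0.186%). The signal of miR-99b-5p overlapped with siC, while both miR-100-5p libraries were below siC. The other chromosome 19 miRNA, let-7e-5p, had a log2 difference of 0.48 ± 0.14 from siC in siIGF2BP1 (SE, limma adjusted p = 0.0879). With edgeR it was 0.22 (adjusted p = 0.327).

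**Figure D3:**
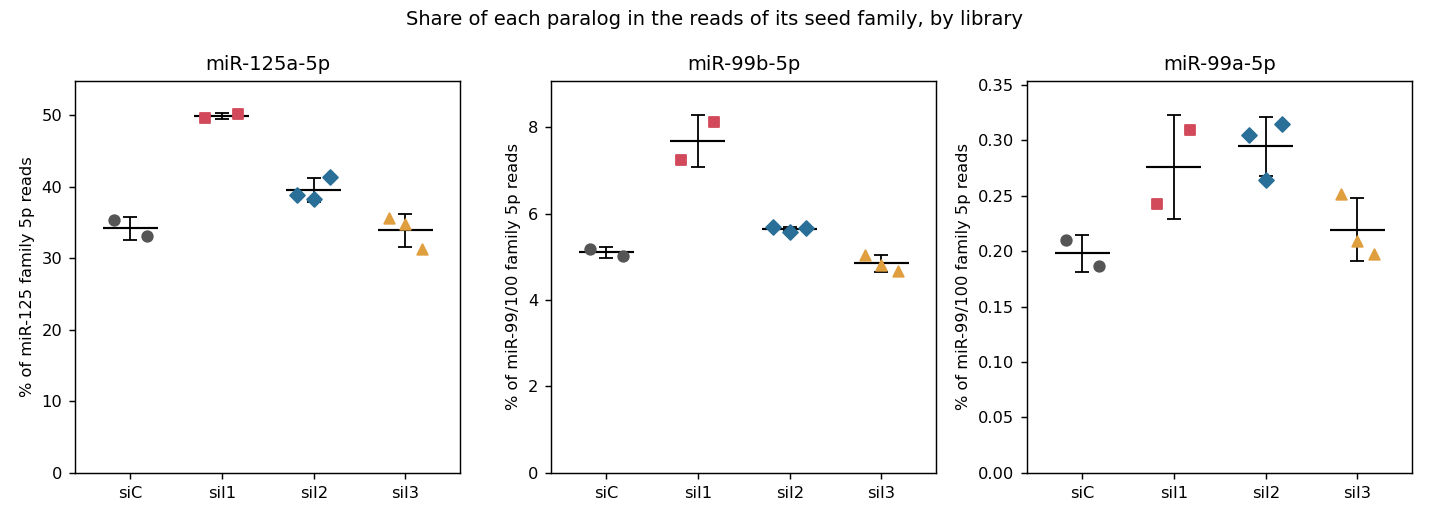
Share of a paralog in the reads of its seed family (percent, linear axes from 0) in each library, for miR-125a-5p among both miR-125 guide strands and for miR-99b-5p and miR-99a-5p among the 3 miR-99/100 guide strands; lines are group means and bars 1 SD. miR-125a-5p took 49.6 and 50.1% in the siIGF2BP1 libraries and 31.3 to 41.4% in all others.

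Arms of 1 hairpin were compared as ratios of 5p to 3p signal. For miR-100 the ratio was 39.4 and 52.5 in siC, 44.8 and 29.7 in siIGF2BP1, 61.6, 25.0 and 30.4 in siIGF2BP2 and 17.0, 26.0 and 19.5 in siIGF2BP3. All siIGF2BP3 ratios were below both siC ratios, and the siIGF2BP2 ratios overlapped with both groups. The log2 ratio of siIGF2BP3 differed from siC by -1.15 (exact permutation test, two-sided p = 0.2, the smallest that 3 against 2 libraries allow). On the other arm, miR-100-3p had a signal of 1453 and 1279 in siC and of 2171, 1632 and 3048 in siIGF2BP3. Its log2 difference was 0.70 ± 0.24 (SE, limma adjusted p = 0.0991).

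For miR-125b-5p over miR-125b-1-3p the ratio was 2.45 and 2.74 in siC, 2.19 and 2.10 in siIGF2BP1, 2.21, 2.18 and 1.86 in siIGF2BP2 and 1.43, 1.42 and 1.68 in siIGF2BP3. The siIGF2BP3 ratios were the lowest, without overlap with any other group. The log2 ratio of siIGF2BP3 differed from siC by -0.78 (exact permutation test, two-sided p = 0.2), and siIGF2BP2 differed from siIGF2BP3 by 0.46 (exact permutation test, two-sided p = 0.1). Because miR-125b-5p comes from both copies and miR-125b-1-3p from 1, this is not the arm ratio of a single hairpin.

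The miR-125a ratio was 70.2 and 62.9 in siC, 41.9 and 46.7 in siIGF2BP1, 55.5, 41.0 and 51.2 in siIGF2BP2 and 34.1, 42.1 and 43.8 in siIGF2BP3, with every knockdown library below siC. The miR-99b ratio was 35.9 and 37.1 in siC and 18.9, 21.4 and 24.6 in siIGF2BP3, with siIGF2BP1 (40.5 and 20.7) and siIGF2BP2 (37.5, 28.3 and 21.0) overlapping with siC. The log2 ratios of siIGF2BP3 differed from siC by -0.73 for miR-125a and by -0.76 for miR-99b (exact permutation tests, two-sided p = 0.2 each). Over 64 hairpins with a mean signal of at least 10 on both arms, the median difference in that comparison was -0.11, and 21.9% had all siIGF2BP3 ratios below siC. Differences lower than that of miR-100 were seen in 3.13% of the 64 hairpins, against 9.38% for miR-99b and 10.9% for miR-125a. In siIGF2BP1 vs siC and siIGF2BP2 vs siC, 21.9% and 18.8% of the 64 hairpins had all knockdown ratios below siC. Differences lower than that of miR-125a were seen in 14.1% and 20.3% of the hairpins there. All 3 comparisons use the same 2 siC libraries, in which miR-125a-3p had 18 and 28 reads. In all, 18 ratios of 5p to 3p arms, of paralogs and of cluster mates were computed for each of the 4 comparisons. The groups did not overlap for 11 of the 18 in siIGF2BP1 vs siC and 9 in siIGF2BP2 vs siC. They did not overlap for 10 in siIGF2BP3 vs siC and 5 in siIGF2BP2 vs siIGF2BP3. For paralogs and cluster mates, no background of other miRNA pairs was computed. The smallest p adjusted over all 72 tests was 0.497. The group sizes allow no exact permutation p below 0.1, so none of these tests could have passed the threshold.

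**Figure D4:**
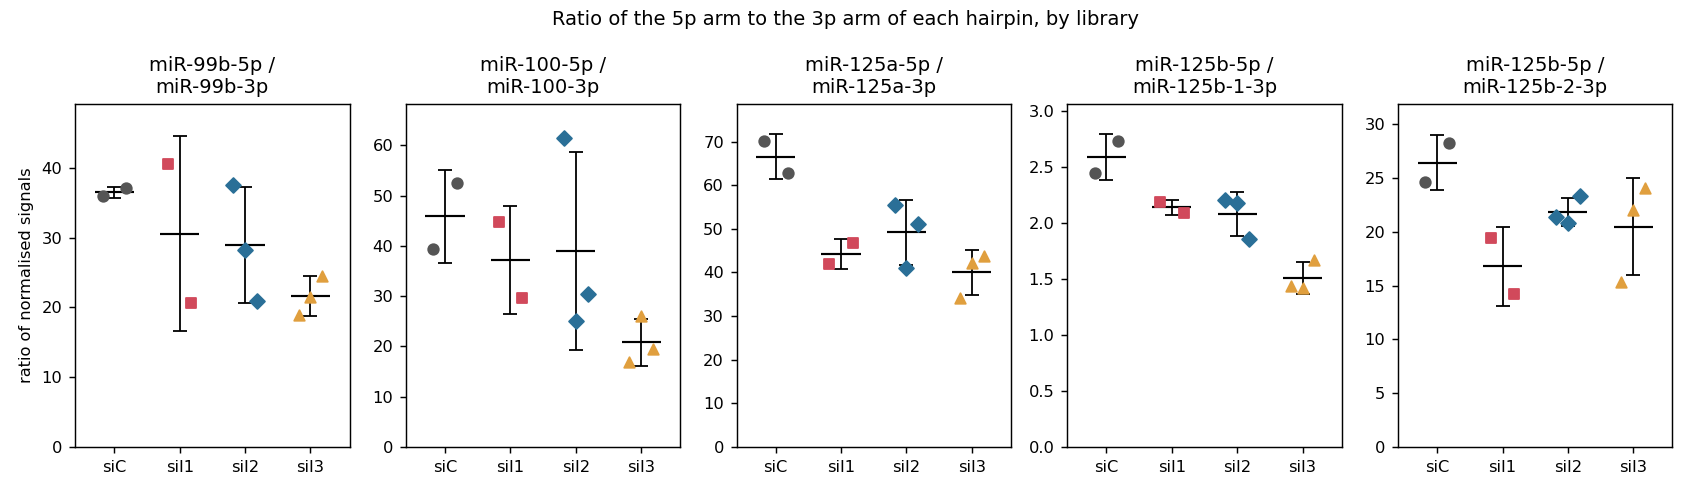
Ratio of 5p to 3p normalised signal (linear axes from 0) in each library for 5 pairs of arms; lines are group means and bars 1 SD. The siIGF2BP3 libraries lie below both siC libraries in all 5 pairs, by the widest margin on a log scale for miR-100 (17.0 to 26.0 against 39.4 and 52.5).

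Neighbours on a chromosome were compared in the same way. On chromosome 19 the ratio of let-7e-5p to miR-125a-5p ranged from 2.27 to 3.03 over all 10 libraries, and only siIGF2BP1 (2.77 and 2.63) was clear of siC (2.36 and 2.60). The ratio of miR-99b-5p to miR-125a-5p was 1.51 and 1.52 in siC and ranged from 1.05 to 1.51 in the knockdown libraries. On chromosome 11 the ratio of miR-100-5p to miR-125b-1-3p was 36.7 and 38.7 in siC, 39.8 and 26.1 in siIGF2BP1, 32.3, 24.0 and 23.3 in siIGF2BP2 and 16.6, 15.7 and 23.6 in siIGF2BP3. The siIGF2BP3 ratios were below siC, with a log2 difference of -1.04 (exact permutation test, two-sided p = 0.2). The passenger arms of the same 2 hairpins, miR-100-3p and miR-125b-1-3p, differed by less: their log2 ratio was -0.27 ± 0.24 (SD, n = 2) in siC and -0.16 ± 0.51 (SD, n = 3) in siIGF2BP3. On chromosome 21 the ratio of let-7c-5p to miR-125b-2-3p was 9.54 and 9.17 in siC and 6.41, 8.13 and 7.15 in siIGF2BP3, which did not overlap. In siIGF2BP3 vs siC 10 of the 18 ratios computed did not overlap, so a lack of overlap was common.

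Of the 11 opposite arms, let-7 neighbours and miR-10 relatives examined beside the members, miR-10a-5p was the only one that limma called in any of the 4 comparisons. It belongs to the wider group of miR-10 and miR-100 relatives and has another seed. It rose by 0.65 ± 0.09 on the log2 scale in siIGF2BP1 vs siC (SE, limma adjusted p = 0.00282), with a signal of 44432 and 47730 in siC against 73100 and 71828, and it was higher by 0.38 ± 0.07 in siIGF2BP2 vs siIGF2BP3 (SE, limma adjusted p = 0.0169). Its groups did not overlap in either comparison. edgeR and DESeq2 called it in both, and also called it lower in siIGF2BP3 vs siC (edgeR -0.31, adjusted p = 0.00842). There both tools called miR-10b-5p lower as well (edgeR -0.55, adjusted p = 0.0245). Its siC libraries lay far apart (19362.5 and 30426.5) and overlapped with siIGF2BP3, and limma gave -0.41 (adjusted p = 0.135). The call was made in 4 of 12 other settings, and leaving out 1 library gave differences as small as -0.08. In siIGF2BP2 vs siIGF2BP3 both called let-7c-5p higher (edgeR 0.38, adjusted p = 0.0413). DESeq2 alone called miR-100-3p lower there (adjusted p = 0.0311) and let-7e-5p higher (adjusted p = 0.0483).

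The members also differed in how much they varied within groups. The pooled within-group SD of log2 signal was 0.107 for miR-125a-5p and 0.108 for miR-125b-1-3p, values that 9.90 and 10.5% of 313 miRNAs fell below. It was 0.353 for miR-100-5p, 0.306 for miR-99b-5p and 0.277 for miR-99a-5p, above the median of 0.254. The same libraries were high for these 3: siIGF2BP1 replicate 1, siIGF2BP2 replicate 1 and siIGF2BP3 replicate 3 lay 0.37, 0.36 and 0.39 above their group means for miR-100-5p and 0.28, 0.37 and 0.34 above them for miR-99b-5p (log2). These libraries were also the highest of their groups for miR-125b-5p, by less (0.10, 0.15 and 0.18 above the group means). For miR-125a-5p they lay 0.08, 0.11 and 0.01 above the group means. The 2 members that limma called in a comparison were those with the smallest spread. Its test divides a difference by an estimate of spread, so spread and calls are not independent. In siIGF2BP1 vs siC edgeR and DESeq2 also called miR-125b-5p (SD 0.182), and not miR-125b-2-3p (SD 0.172).

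As a description of likeness, the 3 miRNAs with the highest Pearson r of log2 signal over the 10 libraries, among 313, were listed for each guide strand. For miR-125a-5p these were miR-10a-5p (0.926), miR-345-5p (0.912) and miR-181a-2-3p (0.908). For miR-125b-5p they were miR-1304-3p (0.915), miR-500a-3p (0.895) and miR-652-3p (0.764). miR-100-5p was most like miR-501-3p (0.756), miR-125b-5p (0.755) and miR-99b-5p (0.693), and miR-99b-5p most like miR-181c-3p (0.792), miR-584-5p (0.761) and miR-27b-3p (0.760). For miR-99a-5p they were miR-99b-5p (0.756), miR-1254 (0.751) and miR-3687 (0.730). These coefficients share libraries, depth and group differences. miR-125a-5p and miR-125b-5p do not appear in each other's lists (r = -0.23). For deviations from group means, r was 0.83 for that pair and 0.99 for miR-100-5p with miR-99b-5p. For miR-125a-5p it was 0.93 with miR-10a-5p, 0.19 with miR-345-5p and 0.26 with miR-181a-2-3p.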

How the data were processed

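Small RNA libraries were made from TRIZOL RNA with an Illumina TruSeq kit, per the labels' protocols. Per the submitters' processing notes, the tools were edgeR 3.12, featureCounts 1.4.6, Bowtie2 2.2.4 and cutadapt 1.6, and the build was hg19. The method of scaling is not given in the sources used here. Deposited values (2794 rows) are a normalised signal for each library, made by the authors, with their log2 fold changes, p-values and false discovery rates, cited only where the authors' table is named. All values were whole multiples of 1 read (100% within 0.01 reads), so whole reads were recovered. The names of the control columns matched no single control sample, so these libraries (siC C2, siC C3) carry no replicate number.

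limma 3.58.1 (R 4.3.3) was fitted with an intensity trend on log2(signal + 1), which understates changes of low miRNAs, in 1 fit of all groups, for 889 miRNAs with a signal of at least 1 in at least 2 libraries. Each adjusted p is from this fit, with Benjamini-Hochberg adjustment, unless edgeR 4.0.16 (quasi-likelihood, 335 miRNAs) or DESeq2 1.42.0, both on recovered reads, is named. The planned test for counts was edgeR; the values being normalised, it became an alternative. Ratios between miRNAs used log2(signal + 1) and two-sided exact permutation tests over libraries (scipy 1.17.1), only where both had a mean of at least 10, which left out miR-99a-5p over miR-99a-3p. Other settings were pseudocounts of 0.1 and 5, scalings, filters, single genomic copies, only the groups compared, and leaving out each library. On simulated data, scaled by their known depth, limma recovered 76.5 to 91.5% of 2-fold changes among the more abundant miRNAs (100 CPM or more), over the 4 comparisons. Over miRNAs of any abundance it recovered 16.2 to 21.6% of 2-fold changes. Smaller changes were not simulated. Members, lists, and the rule for named miRNAs (all members, opposite arms, let-7 neighbours, miR-10 relatives and the 3 most alike) were chosen with earlier results of these data known.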

Additional observations from a re-analysis of the deposited data

How the results depend on the processing

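Over all alternatives, member log2 differences kept direction and side of the threshold in 485 cases, reversed in 36, passed it in 21 and lost it in 10. The number of members called went from 0 to 2 with median-of-ratios scaling, edgeR or DESeq2 and to 1 with library-total scaling or a minimum of 10 in siIGF2BP1 vs siC, from 0 to 4 with upper-quartile scaling in siIGF2BP2 vs siC, and from 1 to 3 with upper-quartile scaling or 2 with DESeq2 in siIGF2BP3 vs siC. In siIGF2BP2 vs siIGF2BP3 it went from 1 to 0 with TMM scaling, upper-quartile scaling or no filter, and to 2 with library-total scaling, a minimum of 10, edgeR, DESeq2 or only the 2 groups compared. Leaving out 1 library gave 0 to 1 there, and the 1 was miR-125b-1-3p without siIGF2BP3 replicate 1. The causes were not tested.

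Upper-quartile scaling moved the median of 313 miRNAs from 0.04 to 0.52 in siIGF2BP2 vs siC and from 0.08 to 0.67 in siIGF2BP3 vs siC, and the calls from 11 higher and 69 lower to 94 and 64, and from 17 and 77 to 137 and 66. The reversed values with it were, in siIGF2BP2 vs siC, miR-99b-5p 0.30, miR-100-5p 0.15 and miR-125b-5p 0.35, in siIGF2BP3 vs siC miR-99a-5p 0.28, miR-99b-5p 0.0670, miR-100-5p 0.15, miR-125a-5p 0.39 and miR-125b-5p 0.41, and in siIGF2BP2 vs siIGF2BP3 miR-125b-5p -0.0527. In siIGF2BP1 vs siC the median was 0.16, -0.07 with median-of-ratios scaling and -0.12 with edgeR, and the calls went from 19 higher and 3 lower to 13 and 15, and to 17 and 25 (12 and 24 with DESeq2). There median-of-ratios scaling, upper-quartile scaling, edgeR and DESeq2 reversed miR-99b-5p (-0.14, -0.12, -0.14 and -0.11) and miR-125b-2-3p (-0.14, -0.13, -0.17 and -0.14). In siIGF2BP2 vs siIGF2BP3 the reversed values were 0.0153 with TMM scaling, 0.00145 with median-of-ratios scaling, 0.0227 with edgeR and 0.0127 with DESeq2 for miR-99b-3p, and 0.00620 with edgeR and 0.00194 with DESeq2 for miR-125b-2-3p.

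Leaving out 1 library gave values on both sides of 0 for 8 differences. In siIGF2BP1 vs siC these were miR-99a-5p (-0.21 to 0.16, and 0.00267 without siC C3), miR-99b-5p (-0.18 to 0.37) and miR-125b-2-3p (-0.0414 to 0.22), in siIGF2BP2 vs siC miR-125b-5p (-0.28 to 0.0284), and in siIGF2BP2 vs siIGF2BP3 miR-99b-3p (-0.17 to 0.0758), miR-100-5p (-0.0640 to 0.31), miR-125b-5p (-0.0498 to 0.15) and miR-125b-2-3p (-0.14 to 0.0707). Where it left 1 siC or siIGF2BP1 library, that library was assumed to vary like the other groups.

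The replicate numbers of siIGF2BP2 and siIGF2BP3 did not pair the libraries (r of same-numbered deviations -0.12, -0.16 and -0.04). With the number as a replicate block 0 members were called, miR-125a-5p had an adjusted p of 0.236, and 4 miRNAs were called higher and 1 lower, against 15 and 13. The number of reads did not order the precision: in siIGF2BP1 vs siC the SE of the log2 difference was 0.26 for miR-100-5p, the most abundant member, 0.26 for miR-99a-5p and 0.22 for miR-99b-3p.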
